A study of Mus musculus with 8 samples.

Results

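The proteases of the MMP, ADAM and ADAMTS families were followed in kidney RNA from mice that lack Tsc1 in the principal cells of the collecting duct. All protein-coding genes of the deposited table whose symbol starts with Mmp, Adam or Adamts and goes on with a digit were taken, which gave 61 of 30587 genes: 21 MMP, 21 ADAM and 19 ADAMTS genes. Whole kidneys were sampled at 28 days of age from Tsc1-KO mice, labelled Tsc1f/f/Aqp2 Cre (4 libraries, Tsc1-KO 5 to 8), and from WT C57BL/6 mice (4 libraries, WT 1 to 4). Tsc1-KO mice came from a cross of floxed Tsc1 mice with mice in which Aqp2 drives Cre, so the deletion is aimed at 1 cell type while the RNA is that of the whole organ. The labels do not say whether WT mice carried floxed Tsc1 or Cre, and they give neither sex nor litter.

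MMPs are zinc-dependent enzymes that cut collagens and other matrix proteins. They are made as inactive precursors, and some are anchored in the cell membrane while others are secreted. ADAMs are membrane proteins with a disintegrin domain, and several of them act as sheddases that release the outer part of receptors and growth factors from the cell surface. ADAMTS enzymes are secreted, carry thrombospondin repeats and process procollagens, proteoglycans such as versican and aggrecan, and microfibril proteins. TIMPs inhibit MMPs and, in part, ADAMs and ADAMTS enzymes. In the kidney these proteases remodel the matrix around tubules and vessels, and Mmp7 is known as a gene that injured tubule cells switch on.

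The libraries held 28651784 to 31226739 counts in Tsc1-KO kidneys and 26453073 to 28740944 counts in WT kidneys. The 61 proteases took 0.0747% to 0.0897% of the counts in Tsc1-KO libraries and 0.0627% to 0.0752% in WT libraries. Tsc1 itself averaged 49.7 ± 13.1 CPM in Tsc1-KO kidneys and 51.4 ± 5.84 CPM in WT kidneys (SD, n = 4 each; edgeR adjusted p = 0.933), where CPM is the count per 1000000 counts of a scaled library. The count covers the whole gene and the whole organ, so it does not check the deletion. Markers of proximal tubule, thick ascending limb, podocyte, principal and intercalated cells were all present, as the tissue label says. Tsc1-KO 7 and 8 held 6001 and 5329 reads of Y-linked genes and WT 3 and 4 held 3945 and 4578, while the other libraries had 0 to 8, so each genotype had 2 libraries of either kind. Tsc1-KO 7 stood apart from its group: across genes its log2 CPM correlated best with WT 4 (Pearson's r = 0.977), above its r of 0.969 to 0.975 with Tsc1-KO 5, 6 and 8, where genes are not independent replicates. Without it 833 genes were called higher, against 632 with it. Values without it are given below for a part of the genes that it moved, so other values may also depend on it.

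Mmp15, Mmp28 and Adamts16 rose in Tsc1-KO kidneys, and no tested protease fell. Of the 61 genes, 47 had enough counts to be tested and 14 did not. The threshold for a call was an adjusted p under 0.05 from the edgeR quasi-likelihood test, with Benjamini-Hochberg adjustment over 18048 genes, of which 4.67% were called in either direction. The 3 called genes were 6.38% of the 47 tested, and 3.5% of all tested genes were called higher. No tested protease was called lower, against 1.16% of all tested genes, and DESeq2 also called 0 lower. At an unadjusted p under 0.05 there were 8 proteases, of which 1, Adam11, was lower. The share of all tested genes at that p was not computed, so this count and the like counts below stand without a background. The Tsc1-KO and WT libraries did not overlap in 5 proteases, all higher in Tsc1-KO, which was 10.6% of those tested and stands against 7.09% of all tested genes for this direction and 4.4% for the other.

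Most of the tested genes had small differences between the genotypes. The log2 change of Tsc1-KO over WT lay between -0.81 and 1.45, and it was under 0.5 in size in 36 of the 47 genes. It was at least 1 in size in Adam23, Mmp15 and Adam33, and in 5.95% of all tested genes. It was above 0 in 37 genes and below 0 in 10, with a median of 0.14, while 50.7% of all tested genes were above 0 with a median of 0.0049. The number above 0 was 29 without WT 1 and 29 without Tsc1-KO 7. It was 35 of 47 with DESeq2, where 47.6% of all these genes were above 0. Whole-kidney RNA cannot tell more RNA per cell from more cells of a type, which holds for every value given here.

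**Figure D1:**
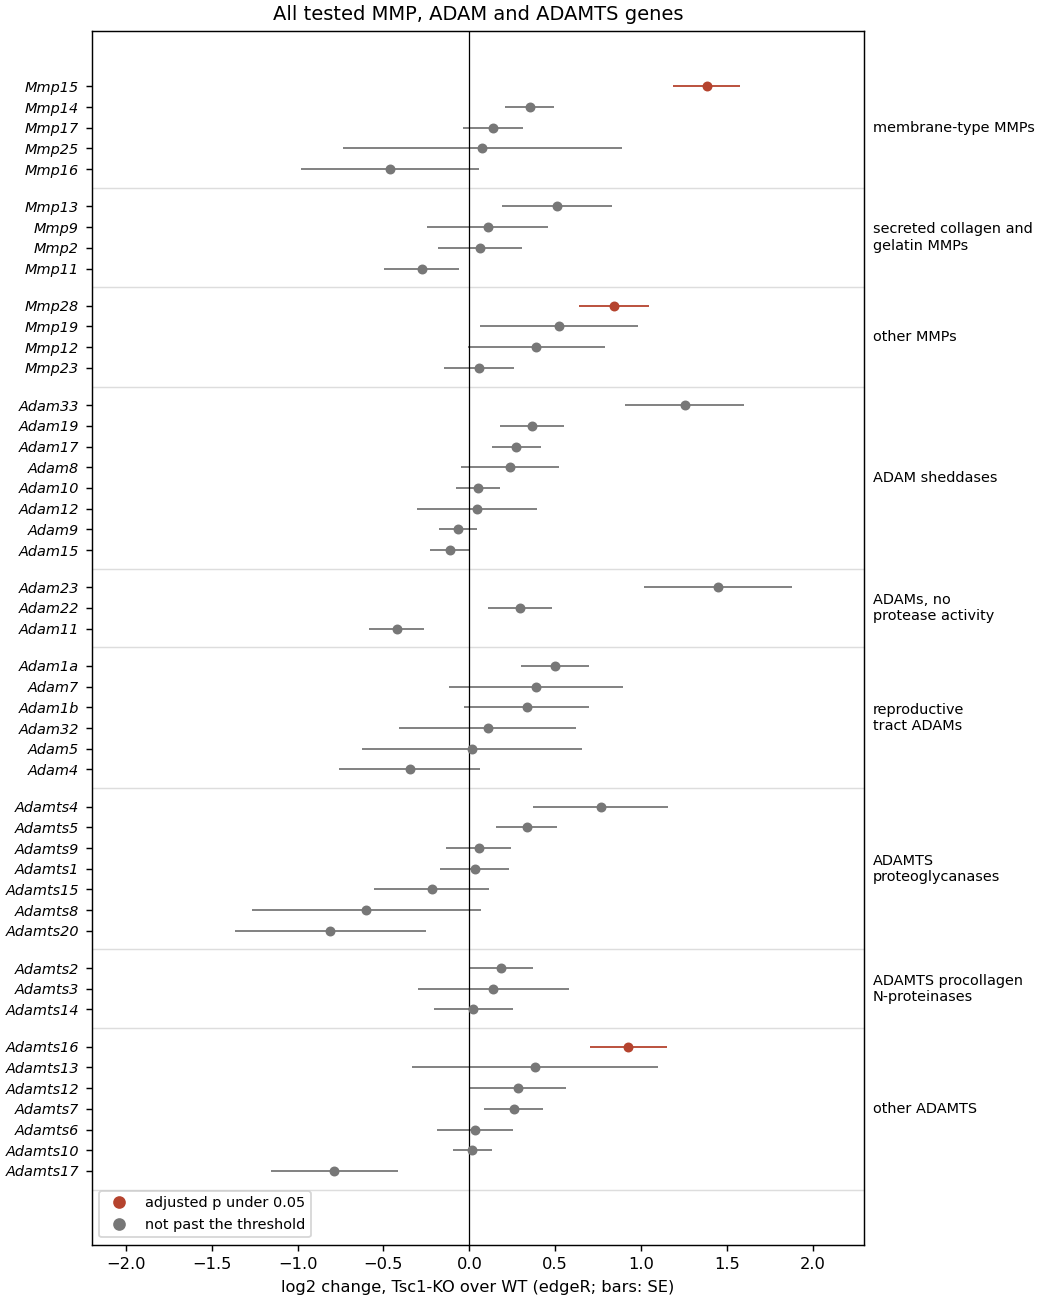
The log2 change of each of the 47 tested proteases is plotted with its SE, Tsc1-KO over WT, grouped by role. The points past an adjusted p of 0.05 are those of Mmp15 at 1.38, Mmp28 at 0.84 and Adamts16 at 0.93, and most others lie near 0.

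Of the membrane-type MMPs, 5 of 6 were tested and 1 rose. Mmp15, which encodes a transmembrane enzyme that cuts matrix proteins and can activate the precursor of MMP2, had 26.6, 19.1, 15.2 and 23.8 CPM in Tsc1-KO 5 to 8, against 6.92, 7.17, 10.2 and 8.20 CPM in WT 1 to 4. The lowest Tsc1-KO library was above the highest WT library, WT 3. Mmp15 was 2.61-fold higher in Tsc1-KO kidneys (log2 change 1.38 ± 0.20 SE, edgeR adjusted p = 0.0025), and the call held in all 8 fits that left out 1 library. The gene lies on chromosome 8 between positions 95352268 and 95375080 on the plus strand (GRCm38). Its log2 change was 1.08 within the 4 libraries that held Y-linked reads (edgeR adjusted p = 0.112) and 1.70 within the other 4 (edgeR adjusted p = 0.0146). Per gene length, Mmp15 averaged 3.87 ± 0.90 FPKM in Tsc1-KO and 1.51 ± 0.27 FPKM in WT kidneys (SD, n = 4 each), where FPKM is the authors' fragment count scaled to gene length and library total.

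Mmp14, the main membrane-bound activator of MMP2 and a collagenase in its own right, was the most abundant membrane-type member. It had 34.9, 45.9, 33.8 and 40.1 CPM in Tsc1-KO 5 to 8, against 36.8, 31.6, 27.9 and 25.0 CPM in WT 1 to 4. The groups overlapped through WT 1, and the log2 change of 0.35 ± 0.14 SE did not pass the test (edgeR adjusted p = 0.23). Mmp17 averaged 4.82 ± 0.39 CPM in Tsc1-KO and 4.38 ± 0.51 CPM in WT kidneys (SD, n = 4 each). Mmp16 and Mmp25 stayed under 1.2 CPM in each library, and Mmp24 had 19 reads over the Tsc1-KO libraries and 10 over the WT libraries.

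The 4 tested genes of secreted collagenases, gelatinases and stromelysins did not pass the test, with 0 at an unadjusted p under 0.05 and 0 called by DESeq2. Mmp2, gelatinase A, had 10.4, 14.7, 26.1 and 13.2 CPM in Tsc1-KO 5 to 8, against 15.2, 15.4, 13.7 and 17.3 CPM in WT 1 to 4. Of the Tsc1-KO libraries only Tsc1-KO 7 stood above all WT libraries, and the log2 change of 0.06 ± 0.24 SE was -0.27 without it. Mmp9, gelatinase B, had 2.84, 1.96, 5.75 and 3.09 CPM in Tsc1-KO 5 to 8, against 3.70, 4.34, 2.70 and 1.94 CPM in WT 1 to 4. Its log2 change of 0.11 ± 0.35 SE was also -0.27 without Tsc1-KO 7. Mmp9 differed in sign between the libraries with Y-linked reads, at 0.93, and those without, at -0.74. The interaction had an edgeR adjusted p above 0.99, as it had for every tested protease. Mmp13, a collagenase, averaged 3.08 ± 1.28 CPM in Tsc1-KO and 2.16 ± 0.48 CPM in WT kidneys, and Mmp11, stromelysin-3, averaged 10.8 ± 2.93 CPM in Tsc1-KO and 13.1 ± 2.52 CPM in WT kidneys (SD, n = 4 each).

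Among the remaining MMPs 4 of 8 were tested and Mmp28 rose. Mmp28, epilysin, is a secreted MMP of epithelia and macrophages. It had 9.55, 8.11, 6.72 and 7.28 CPM in Tsc1-KO 5 to 8, against 5.15, 5.27, 3.33 and 3.88 CPM in WT 1 to 4. The groups did not overlap, with Tsc1-KO 7 the lowest of its group, and Mmp28 was 1.80-fold higher in Tsc1-KO kidneys (log2 change 0.84 ± 0.20 SE, edgeR adjusted p = 0.0387). The call was lost in 7 of the 8 fits that left out 1 library, with log2 changes of 0.71 to 0.92 and adjusted p-values up to 0.126, and it held without Tsc1-KO 7. It was also lost within the 4 libraries with Y-linked reads, at a log2 change of 0.96 (edgeR adjusted p = 0.152), and within the other 4, at 0.76 (edgeR adjusted p = 0.206). Mmp28 lies on chromosome 11 between positions 83440768 and 83463071 on the minus strand and shares 12.03% of its exon bases with 1700020L24Rik on the opposite strand. Whether the counting used strand is not given in the sources used here, and 1700020L24Rik averaged 2.14 ± 0.78 CPM in Tsc1-KO and 1.46 ± 0.45 CPM in WT kidneys (SD, n = 4 each; edgeR adjusted p = 0.462).

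The other tested genes of this group overlapped between genotypes. Mmp12, the macrophage elastase, averaged 1.46 ± 0.70 CPM in Tsc1-KO and 1.11 ± 0.36 CPM in WT kidneys. Mmp19 averaged 1.30 ± 0.69 CPM in Tsc1-KO and 0.91 ± 0.32 CPM in WT kidneys, and Mmp23 averaged 10.2 ± 2.96 CPM in Tsc1-KO and 9.79 ± 0.89 CPM in WT kidneys (SD, n = 4 each). Mmp19 shares 22.3% of its exon bases with Tmem198b on the opposite strand.

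**Figure D2:**
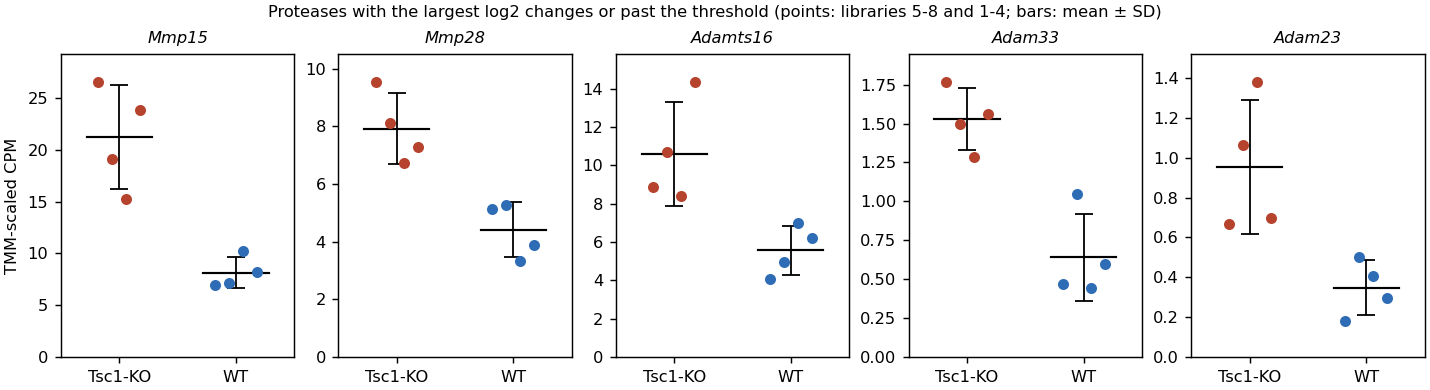
TMM-scaled CPM of the called genes Mmp15, Mmp28 and Adamts16 and of the uncalled genes Adam33 and Adam23 is plotted for each library, with the mean and SD of each genotype. In all 5 genes the Tsc1-KO points lie above the WT points, with the widest gap relative to WT spread in Mmp15.

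The promoters of the called MMP genes are shown because both hold a GC box, the letters bound by SP1 and related factors, and no TATAAA. Both are RefSeq sequences of GRCm38.p6, the 250 bases before the RefSeq start site, written 5′ to 3′ on the strand of the gene, with GGGCGG or its reverse complement in capitals. The Mmp15 sequence is chr8:95352046-95352295 on the plus strand, and the Mmp28 sequence is chr11:83463041-83463290 on the minus strand.
Mmp15: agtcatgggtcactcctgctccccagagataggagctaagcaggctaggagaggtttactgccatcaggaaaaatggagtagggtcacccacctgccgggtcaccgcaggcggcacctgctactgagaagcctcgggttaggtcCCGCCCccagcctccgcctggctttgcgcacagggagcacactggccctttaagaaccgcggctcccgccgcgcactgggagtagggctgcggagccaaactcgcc
Mmp28: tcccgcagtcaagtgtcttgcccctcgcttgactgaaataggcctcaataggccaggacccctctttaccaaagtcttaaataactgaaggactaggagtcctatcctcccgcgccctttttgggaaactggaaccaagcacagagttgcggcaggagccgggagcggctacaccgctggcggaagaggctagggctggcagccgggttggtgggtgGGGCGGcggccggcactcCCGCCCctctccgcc
The match in Mmp15 starts 106 bases before the start site, and those in Mmp28 start 33 and 15 bases before it. Of the 61 proteases 36 had a promoter in the RefSeq table used, and 17 of them held GGGCGG on either strand (47.2%), against 32.7% of all 32851 promoters of this length. The E-box CACGTG was in 2 of the 36 (5.56%, against 6.02% of all promoters), and TGATGNAA, the letters of an ATF4 site, in 1 (2.78%, against 3.45%). The motifs were searched one by one, so that matches to different motifs may overlap, and a match describes the sequence and is no measured binding site.

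Mmp7 and several neighbours on chromosome 9 had few reads, but most of them came from Tsc1-KO libraries. Of the MMP genes followed here, 8 lie between positions 7272514 and 7699585 of chromosome 9 (GRCm38), in the order Mmp13, Mmp12, Mmp3, Mmp10, Mmp8, Mmp27, Mmp20 and Mmp7. Mmp7, matrilysin, cuts matrix and cell surface proteins and had 13, 14, 2 and 12 reads in Tsc1-KO 5 to 8, against 2, 0, 0 and 0 reads in WT 1 to 4. Tsc1-KO 7 was the only Tsc1-KO library that did not exceed WT 1. The ratio of summed reads, scaled to library size, was 17.8 (95% exact interval 4.63 to 152, counting error only). With all libraries Mmp7 did not pass the count minimum. Without the minimum its edgeR adjusted p was 0.0566. DESeq2 gave an adjusted p of 0.0379. When Tsc1-KO 7 was left out, Mmp7 passed the minimum and was called, with a log2 change of 4.23 (edgeR adjusted p = 0.019). Mmp7 shares 11.5% of its exon bases with the antisense gene AV064505.

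Mmp20, which encodes enamelysin, an enzyme of tooth enamel formation, had 15, 10, 1 and 0 reads in Tsc1-KO 5 to 8 and none in any WT library. The ratio of its summed reads, 26 in Tsc1-KO and 0 in WT, had a lower exact 95% limit of 5.71 after scaling to library size (counting error only). Nearly all reads came from Tsc1-KO 5 and 6, and without the count minimum the edgeR adjusted p was 0.102. Mmp3, stromelysin-1, had 18, 42, 6 and 9 reads in Tsc1-KO 5 to 8, against 13, 9, 1 and 4 reads in WT 1 to 4. The groups overlapped, and the scaled ratio was 2.42 (95% exact interval 1.54 to 3.90, counting error only; edgeR adjusted p without the minimum 0.48). Mmp27 had 4 reads in all Tsc1-KO libraries together and 0 in WT, Mmp10 had 2 in Tsc1-KO and 0 in WT, and Mmp8 had 3 in Tsc1-KO and 4 in WT. Outside the cluster Mmp21 had 33 reads over the Tsc1-KO libraries and 5 over the WT libraries, a scaled ratio of 5.74 (95% exact interval 2.23 to 18.8, counting error only; edgeR adjusted p without the minimum 0.232). These low-count genes were picked for naming after their values were seen.

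**Figure D3:**
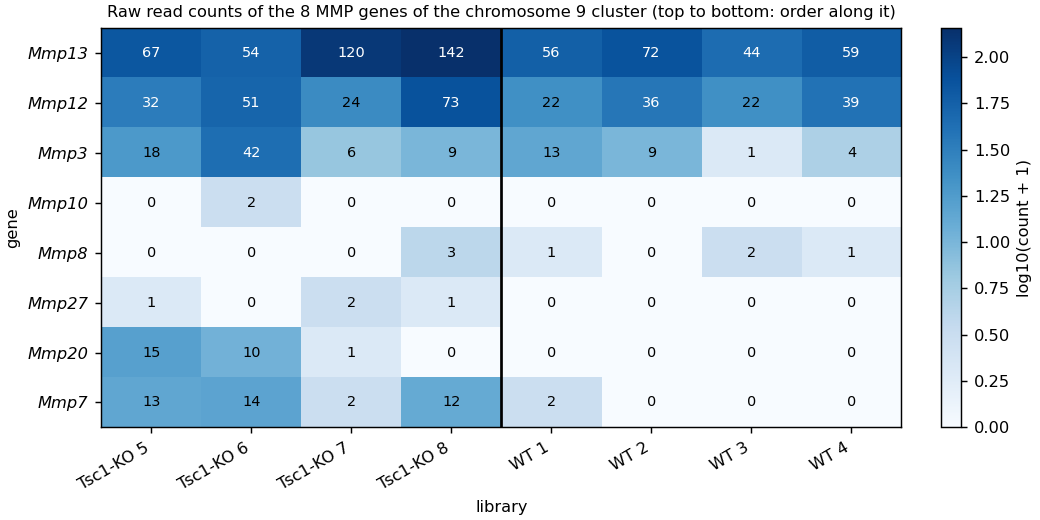
Raw read counts of the 8 MMP genes on chromosome 9 are shown by library, Tsc1-KO 5 to 8 left of the line and WT 1 to 4 right of it, with the shade giving log10(count + 1). Mmp7 reached 12 to 14 reads in Tsc1-KO 5, 6 and 8 and at most 2 in WT, and Mmp20 reads came from 3 Tsc1-KO libraries.

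The cluster promoters are shown because 5 of the 8 hold TGANTCA in the 250 bases before the start site. This pattern, searched on both strands, is looser than the AP-1 site, since N stands for any base. All 5 also hold TATAAA, and none of the 8 holds a GC box. The Mmp7 promoter is given in full (chr9:7691840-7692089), and windows around the match are given for Mmp3 (chr9:7445749-7445808), Mmp10 (chr9:7502252-7502311), Mmp13 (chr9:7272452-7272511) and Mmp20 (chr9:7628109-7628168). All are on the plus strand of GRCm38.p6 from RefSeq, written 5′ to 3′ with the match in capitals.
Mmp7: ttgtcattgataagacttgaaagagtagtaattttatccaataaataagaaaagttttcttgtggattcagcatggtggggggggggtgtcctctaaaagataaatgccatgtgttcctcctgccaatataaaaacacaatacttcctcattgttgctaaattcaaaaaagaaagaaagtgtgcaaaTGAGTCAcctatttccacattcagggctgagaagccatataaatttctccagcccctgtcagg
Mmp3: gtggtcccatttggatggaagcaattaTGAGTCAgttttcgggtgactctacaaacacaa
Mmp10: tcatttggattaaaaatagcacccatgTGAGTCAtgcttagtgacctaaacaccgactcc
Mmp13: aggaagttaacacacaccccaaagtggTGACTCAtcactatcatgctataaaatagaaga
Mmp20: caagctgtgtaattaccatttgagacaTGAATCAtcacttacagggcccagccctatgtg
The match starts 63 bases before the start site in Mmp7, 46 in Mmp3, 63 in Mmp10, 35 in Mmp13 and 95 in Mmp20. Mmp7, Mmp3 and Mmp10 hold TGAGTCA, the letters of an AP-1 site, and the TGACTCA of Mmp13 is the same site read on the other strand. The TGAATCA of Mmp20 fits the looser pattern only. Over all proteases with a promoter, 6 of 36 held TGANTCA (16.7%), against 6.75% of all promoters, and 7 of 36 held TATAAA (19.4%), against 12.4%. The sixth with TGANTCA was Adam19.

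The sheddases Adam9 and Adam10 had the highest levels per gene length. Of 8 tested sheddases 0 were called by edgeR, 1 (Adam33) had an unadjusted p under 0.05, and 1 (Adam33) was called by DESeq2. By mean FPKM over all libraries, Adam9 came first (24.5 FPKM), followed by Adam10 (16.7 FPKM), Adamts1 (13.1 FPKM), Adam15 (12.7 FPKM), Adamts10 (8.08 FPKM), Adam17 (6.43 FPKM), Mmp14 (5.76 FPKM) and Mmp2 (4.64 FPKM). In this order Adamts1 and Adam15, Adam17 and Mmp14, and Mmp14 and Mmp2 differed by less than the larger SD within a genotype, and so did Mmp2 and the next gene, Mmp11 (4.28 FPKM). In all, 22 of the 61 proteases averaged at least 1 FPKM.

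Adam10, the sheddase of Notch receptors and cadherins, had 82.3, 72.0, 98.4 and 84.0 CPM in Tsc1-KO 5 to 8, against 68.9, 76.5, 85.6 and 94.2 CPM in WT 1 to 4. The 2 groups covered nearly the same range, with a log2 change of 0.05 ± 0.13 SE. Adam17, which releases TNF and several EGF receptor ligands, had 54.7, 46.8, 58.6 and 42.8 CPM in Tsc1-KO 5 to 8, against 32.3, 45.5, 42.6 and 47.4 CPM in WT 1 to 4. The groups overlapped, and its log2 change of 0.27 ± 0.14 SE did not pass the test (edgeR adjusted p = 0.369). Adam17 shares 4.35% of its exon bases with Iah1 on the opposite strand, and Iah1 averaged 113.5 ± 8.71 CPM in Tsc1-KO and 169.8 ± 27.7 CPM in WT kidneys (SD, n = 4 each; edgeR adjusted p = 0.0265). Adam9 averaged 99.2 ± 12.3 CPM in Tsc1-KO and 104.0 ± 6.52 CPM in WT kidneys, and Adam15 averaged 75.1 ± 5.40 CPM in Tsc1-KO and 81.3 ± 10.2 CPM in WT kidneys (SD, n = 4 each). Adam15 shares 20.6% of its exon bases with the antisense gene 4731419I09Rik, which stayed under 1 CPM.

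**Figure D4:**
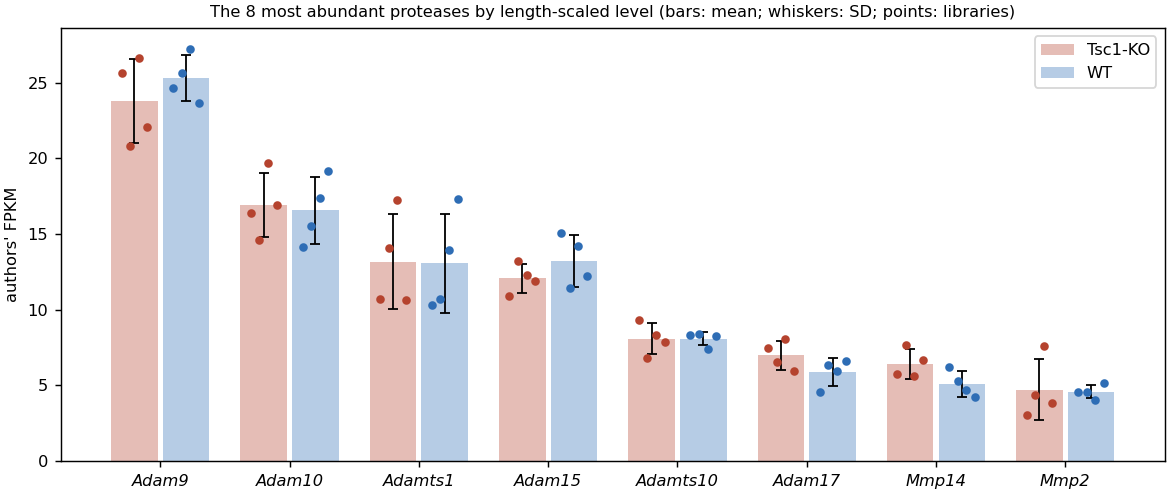
The authors' FPKM is plotted for the 8 proteases with the highest mean, with points for libraries, bars for the mean and whiskers for the SD, Tsc1-KO left of WT. The Tsc1-KO and WT points overlap in each gene, and 1 Tsc1-KO library stands above the rest in Mmp2.

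Adam33 was at low levels and did not overlap between genotypes. This membrane protease of mesenchymal cells is known as an asthma susceptibility gene in humans. It had 1.77, 1.495, 1.29 and 1.56 CPM in Tsc1-KO 5 to 8, against 0.47, 1.05, 0.44 and 0.60 CPM in WT 1 to 4. All Tsc1-KO libraries were above WT 2, the highest WT library, yet the log2 change of 1.25 ± 0.35 SE did not pass the test (edgeR adjusted p = 0.0691). It passed with DESeq2 (adjusted p = 0.0234) and without WT 2 (edgeR adjusted p = 0.0394). Adam19, Adam12 and Adam8, a sheddase of leukocytes, overlapped between genotypes. Adam19 averaged 11.03 ± 2.38 CPM in Tsc1-KO and 8.57 ± 1.44 CPM in WT kidneys, Adam12 averaged 14.7 ± 7.72 CPM in Tsc1-KO and 14.3 ± 4.55 CPM in WT kidneys, and Adam8 averaged 1.80 ± 0.23 CPM in Tsc1-KO and 1.54 ± 0.46 CPM in WT kidneys (SD, n = 4 each). Without Tsc1-KO 7 the log2 change of Adam12 was -0.38, against 0.04 with it. Adam28 had 38 reads in Tsc1-KO and 29 in WT and was not tested.

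The ADAMs without protease activity, which act in cell adhesion in the nervous system, went different ways and did not pass the test. Adam23 had 0.67, 1.06, 1.38 and 0.70 CPM in Tsc1-KO 5 to 8, against 0.18, 0.50, 0.41 and 0.30 CPM in WT 1 to 4. The groups did not overlap, and its log2 change of 1.45 ± 0.43 SE was the highest of all 47 (edgeR adjusted p = 0.0897). Adam22 averaged 11.7 ± 2.41 CPM in Tsc1-KO and 9.57 ± 1.68 CPM in WT kidneys (SD, n = 4 each; edgeR adjusted p = 0.476). Adam11 had 9.51, 9.84, 10.7 and 7.92 CPM in Tsc1-KO 5 to 8, against 10.1, 15.1, 12.6 and 13.0 CPM in WT 1 to 4. Tsc1-KO 7 was above WT 1, and the log2 change was -0.42 ± 0.16 SE (edgeR adjusted p = 0.19).

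Of the 9 ADAMs known from the testis and epididymis, 6 passed the count minimum, 0 were called by edgeR or DESeq2 and 1 (Adam1a) had an unadjusted p under 0.05. Adam1a had the most reads, with 9.81, 6.88, 6.60 and 7.13 CPM in Tsc1-KO 5 to 8, against 5.29, 6.90, 4.70 and 4.66 CPM in WT 1 to 4. WT 2 overlapped with the Tsc1-KO group, and the log2 change was 0.50 ± 0.20 SE (edgeR adjusted p = 0.217). Adam1a shares 63.7% of its exon bases with Gm42878 and 24.0% with Mapkapk5 on its own strand, and 11.3% with Tmem116 on the other, so its reads cannot be given to it with certainty. Adam1b averaged 2.74 ± 0.99 CPM in Tsc1-KO and 2.17 ± 1.05 CPM in WT kidneys (SD, n = 4 each), and Adam4, Adam5, Adam7 and Adam32 stayed under 1.2 CPM in each library. Adam2 had 5 reads in Tsc1-KO and 20 in WT, Adam21 had 8 in Tsc1-KO and 14 in WT, and Adam30 had 0 in Tsc1-KO and 2 in WT. All Adam2 reads came from the libraries with Y-linked reads, Tsc1-KO 7 and 8 and WT 3 and 4. All Tsc1-KO reads of Adam21 came from Tsc1-KO 6.

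Adamts16 was the called ADAMTS gene, 1 of 17 tested. The secreted enzyme it encodes is linked to blood pressure in rats. It had 8.88, 10.7, 8.39 and 14.4 CPM in Tsc1-KO 5 to 8, against 4.09, 4.96, 6.99 and 6.22 CPM in WT 1 to 4. The groups did not overlap, and Adamts16 was 1.90-fold higher in Tsc1-KO kidneys (log2 change 0.93 ± 0.23 SE, edgeR adjusted p = 0.0407). The call was lost in 7 of the 8 fits that left out 1 library, with log2 changes of 0.74 to 1.04 and adjusted p-values up to 0.121, and it held without Tsc1-KO 7. It was also lost within the 4 libraries with Y-linked reads, at a log2 change of 0.78 (edgeR adjusted p = 0.347), and within the other 4, at 1.11 (edgeR adjusted p = 0.123). Adamts16 lies on chromosome 13 between positions 70727802 and 70841811 on the minus strand (GRCm38).

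The proteoglycanases, which cut versican and aggrecan, were tested in full and 0 of 7 were called by edgeR or DESeq2, with 0 at an unadjusted p under 0.05. Adamts1, whose loss malforms the kidney in mice, had 58.1, 75.0, 92.9 and 57.2 CPM in Tsc1-KO 5 to 8, against 54.3, 56.8, 74.2 and 91.9 CPM in WT 1 to 4. The ranges nearly coincided, with 1 library above 90 CPM in each group. Adamts5, which lies 53060 bases from Adamts1 on chromosome 16, had 34.6, 26.7, 47.9 and 34.3 CPM in Tsc1-KO 5 to 8, against 22.4, 30.6, 27.8 and 33.0 CPM in WT 1 to 4. Its log2 change of 0.33 ± 0.18 SE did not pass the test (edgeR adjusted p = 0.376) and was 0.16 without Tsc1-KO 7. Adamts4 averaged 2.26 ± 1.15 CPM in Tsc1-KO and 1.33 ± 0.38 CPM in WT kidneys, Adamts9 averaged 31.2 ± 7.64 CPM in Tsc1-KO and 30.04 ± 6.06 CPM in WT kidneys, and Adamts15 averaged 26.2 ± 10.1 CPM in Tsc1-KO and 30.5 ± 10.5 CPM in WT kidneys (SD, n = 4 each). Adamts8, which shares 10.6% of its exon bases with the antisense gene Gm29724, averaged 2.45 ± 1.70 CPM in Tsc1-KO and 3.71 ± 1.85 CPM in WT kidneys (SD, n = 4 each). Adamts20 had the lowest log2 change of all 47, -0.81 ± 0.56 SE, at levels under 0.9 CPM in each library (edgeR adjusted p = 0.513).

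The procollagen N-proteinases Adamts2, Adamts3 and Adamts14, which trim fibrillar procollagens, had log2 changes of 0.18, 0.14 and 0.02, each within 1 SE of 0. Adamts10, which binds fibrillin microfibrils, averaged 44.6 ± 6.05 CPM in Tsc1-KO and 44.1 ± 2.36 CPM in WT kidneys (SD, n = 4 each). Adamts17, its near relative, had 0.70, 0.76, 1.82 and 1.02 CPM in Tsc1-KO 5 to 8, against 1.12, 2.17, 1.96 and 2.20 CPM in WT 1 to 4. The groups overlapped through Tsc1-KO 7, with a log2 change of -0.79 ± 0.37 SE (edgeR adjusted p = 0.305). Without Tsc1-KO 7 the log2 change was -1.17 (edgeR adjusted p = 0.0844). Adamts6, Adamts7, Adamts12 and Adamts13, the enzyme that cuts von Willebrand factor, had log2 changes of 0.03, 0.26, 0.28 and 0.38, and none passed the test. Without Tsc1-KO 7 that of Adamts12 was -0.07. Adamts18 had 2 reads in Tsc1-KO and 9 in WT, and Adamts19 had 1 in Tsc1-KO and 3 in WT. All WT reads of Adamts18 came from WT 2.

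The libraries did not spread evenly over the family. Tsc1-KO 7 was the highest of the 8 libraries in 15 of 47 proteases, among them Mmp2, Mmp9, Adam12, Adamts1 and Adamts5, and WT 1 was the lowest in 20. The like counts over all tested genes were not made, so this spread is not shown to be particular to the proteases. The summed level of 10 fibroblast and mural cell markers was 826 to 1331 CPM in Tsc1-KO and 681 to 1003 CPM in WT libraries, with its highest value in Tsc1-KO 7 and its lowest in WT 1. Most of the sum was collagen RNA, with Col1a1, Col1a2 and Col3a1 at 297, 344 and 385 CPM in Tsc1-KO 7. Pdgfra and Pdgfrb were instead highest in Tsc1-KO 5 and lowest in Tsc1-KO 6, so the sum does not stand for each marker. Of these 10 markers 0 were called by edgeR or DESeq2, and 1 had an unadjusted p under 0.05. Over the whole family, MMP genes summed to 27.8 to 31.003 FPKM in Tsc1-KO and 22.1 to 27.0 FPKM in WT libraries. The MMP sums include the called gene Mmp15, at 2.78 to 4.82 FPKM in Tsc1-KO and 1.29 to 1.89 FPKM in WT libraries. The gap between the sums is therefore no measure of the other MMP genes. ADAM genes summed to 63.3 to 76.9 FPKM in Tsc1-KO and 64.7 to 73.9 FPKM in WT libraries, and ADAMTS genes to 35.7 to 45.6 FPKM in Tsc1-KO and 31.04 to 42.9 FPKM in WT libraries.

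Markers of several kidney and immune cell types differed between the genotypes. Of 12 macrophage markers 4 rose (8 by DESeq2), with summed levels of 174 to 248 CPM in Tsc1-KO and 129 to 156 CPM in WT libraries. The log2 change was above 0 in 11 of them. It was -0.15 in Csf1r, the marker with the highest level, at 66.8 CPM in Tsc1-KO and 74.1 CPM in WT kidneys on average. All 8 markers of A-type intercalated cells rose, with sums of 619 to 1232 CPM in Tsc1-KO and 271 to 381 CPM in WT libraries. Of 8 proximal tubule markers 4 fell, with sums of 8491 to 12229 CPM in Tsc1-KO and 14432 to 15898 CPM in WT libraries. Of 6 tested T cell markers 1 rose (Cd8b1), with sums of 6.14 to 15.7 CPM in Tsc1-KO and 5.14 to 7.97 CPM in WT libraries. The value of 15.7 CPM was that of Tsc1-KO 6, while Tsc1-KO 5, 7 and 8 had 6.14, 7.26 and 7.06 CPM, within the WT range. The log2 change was above 0 in 5 of these markers and -0.58 in Cd8a (edgeR adjusted p = 0.438). Among 6 tested markers of principal cells, the targeted cell type, Gata3 and Scnn1g rose and Fxyd4 fell, and the sums were 744 to 927 CPM in Tsc1-KO and 616 to 958 CPM in WT libraries. The podocyte marker Ptpro (log2 change -1.66) and the distal convoluted tubule marker Pvalb (log2 change -2.06) also fell. Neutrophil markers summed to 1.79 to 7.35 CPM in Tsc1-KO and 2.39 to 2.87 CPM in WT libraries, with 2 of 8 listed genes past the count minimum. Neither of these nor any of 8 endothelial markers was called by edgeR or DESeq2 or had an unadjusted p under 0.05. The part of these cells in the levels of Mmp15, Mmp28 and Adamts16 was not tested.

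Of 8 listed inhibitors 7 were tested, and Timp1 and Papln rose. Timp1, the TIMP that is induced in wounded tissue, had 5.34, 8.04, 0.94 and 4.77 CPM in Tsc1-KO 5 to 8, against 0.54, 0.27, 0.19 and 0.19 CPM in WT 1 to 4. The groups did not overlap, although Tsc1-KO 7 was far below the rest of its group, and Timp1 was 15.8-fold higher in Tsc1-KO kidneys (log2 change 3.98 ± 0.63 SE, edgeR adjusted p = 0.0056). Papln encodes papilin, a basement membrane protein whose Drosophila form inhibits a procollagen N-proteinase. It had 29.2, 19.6, 13.5 and 29.1 CPM in Tsc1-KO 5 to 8, against 5.87, 7.71, 8.88 and 8.68 CPM in WT 1 to 4. The groups did not overlap, and Papln was 2.93-fold higher in Tsc1-KO kidneys (log2 change 1.55 ± 0.25 SE, edgeR adjusted p = 0.0047). Both calls held in all 8 fits that left out 1 library, and both were lost within the 4 libraries with Y-linked reads, where the log2 change was 3.91 for Timp1 (edgeR adjusted p = 0.0658) and 1.28 for Papln (edgeR adjusted p = 0.167).

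The other inhibitors did not pass the test. Timp3, which binds the matrix and inhibits ADAM17 and the aggrecanases, had by far the highest CPM of the inhibitors, at 743, 398, 1062 and 461 CPM in Tsc1-KO 5 to 8, against 524, 782, 1008 and 1013 CPM in WT 1 to 4. The groups overlapped, and its log2 change was -0.32 ± 0.33 SE (edgeR adjusted p = 0.695). Timp2 averaged 102.0 ± 9.67 CPM in Tsc1-KO and 92.3 ± 7.68 CPM in WT kidneys, Timp4 averaged 1.24 ± 0.38 CPM in Tsc1-KO and 0.60 ± 0.26 CPM in WT kidneys (edgeR adjusted p = 0.204), and Reck, a membrane-anchored inhibitor of MMPs, averaged 13.5 ± 1.34 CPM in Tsc1-KO and 14.7 ± 1.36 CPM in WT kidneys (SD, n = 4 each). The ADAMTS-like proteins, which lack the protease domain, had 6 tested genes, 0 calls by edgeR or DESeq2 and 1 gene (Adamtsl2, log2 change -0.41) at an unadjusted p under 0.05.

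**Figure D5:**
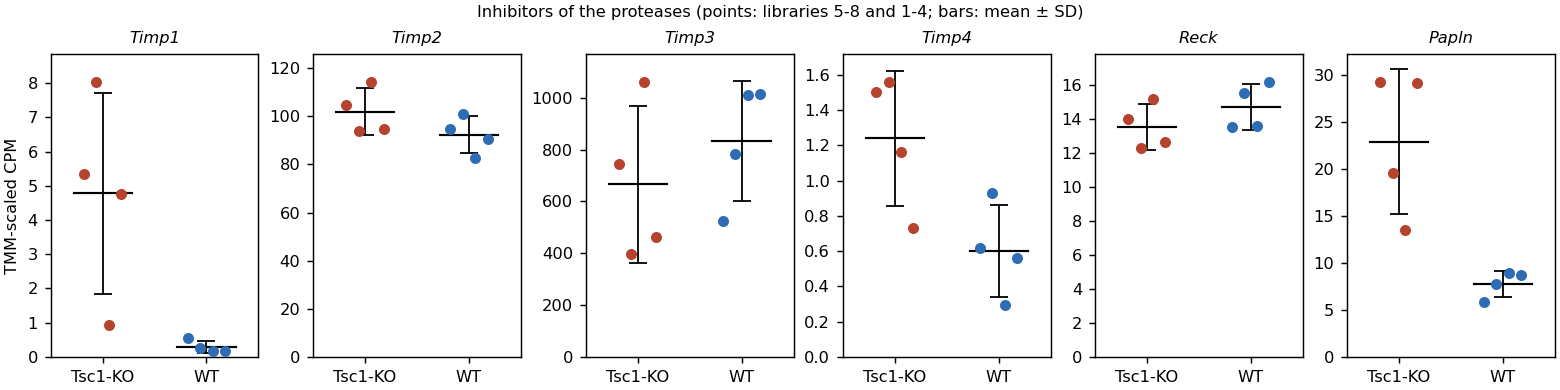
TMM-scaled CPM of 6 inhibitors is plotted for each library, with the mean and SD of each genotype, Tsc1-KO left of WT. The genotypes are separate in Timp1 and Papln and overlap in Timp2, Timp3, Timp4 and Reck.

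Of 27 tested genes among partners of ADAM10 and ADAM17, activators and inducers, EGF receptor ligands and other metalloproteases, 3 fell and 0 rose. These lists leave out the inhibitors, of which 2 of 7 tested genes rose, and the ADAMTS-like genes, with 0 of 6 called. The 3 that fell were 11.1% of the 27, against 1.16% of all tested genes called lower. That percentage depends on which lists are pooled. Of the 27, 8 had an unadjusted p under 0.05, a count without a background share. Of 8 tested partners of ADAM10 and ADAM17, Tspan33 fell. Tspan33 is a tetraspanin that carries ADAM10 to the cell surface, and it had 45.5, 46.4, 56.0 and 57.1 CPM in Tsc1-KO 5 to 8, against 86.7, 80.5, 86.4 and 73.1 CPM in WT 1 to 4. The groups did not overlap, and the log2 change was -0.67 ± 0.11 SE (edgeR adjusted p = 0.0067), a call that held in all 8 fits that left out 1 library. The call was lost within the 4 libraries with Y-linked reads, at -0.50 (edgeR adjusted p = 0.224). Tspan15 and Rhbdf1 did not pass the test, with log2 changes of 0.31 and -0.28. Tspan15 steers ADAM10 to cadherins, and Rhbdf1 helps ADAM17 mature.

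Of 9 tested activators and inducers, Klk1 fell. Klk1, the tissue kallikrein of the connecting tubule, had 1380, 982, 1204 and 932 CPM in Tsc1-KO 5 to 8, against 2756, 2502, 1516 and 1594 CPM in WT 1 to 4. Without overlap between the groups, WT 1 and 2 stood far above WT 3 and 4. Its log2 change was -0.90 ± 0.21 SE (edgeR adjusted p = 0.0367), with -0.54 within the libraries with Y-linked reads (edgeR adjusted p = 0.361) and -1.15 within the others (edgeR adjusted p = 0.0261). The call was also lost without WT 1, WT 2, Tsc1-KO 6 or Tsc1-KO 8. Furin, which cuts the precursors of membrane-type MMPs and of many ADAMs, had a log2 change of -0.36 ± 0.12 SE (edgeR adjusted p = 0.138). Of the EGF receptor ligands that ADAMs shed, 4 were tested, 0 were called by edgeR or DESeq2 and 1 (Tgfa) had an unadjusted p under 0.05. Tgfa did not overlap between genotypes, at 10.5 ± 2.11 CPM in Tsc1-KO and 7.53 ± 0.89 CPM in WT kidneys (SD, n = 4 each; edgeR adjusted p = 0.167). Of 6 other tested metalloproteases, Mep1b, a meprin subunit of the proximal tubule brush border, fell to 148.8 ± 34.9 CPM in Tsc1-KO kidneys, against 229.5 ± 22.7 CPM in WT kidneys (SD, n = 4 each; edgeR adjusted p = 0.0476). Its call held in 1 of the 8 fits that left out 1 library, the fit without Tsc1-KO 7, and was lost both within the libraries with Y-linked reads, at -0.64, and within the others, at -0.61. Mep1a, the other meprin subunit, had a log2 change of -0.49 ± 0.17 SE (edgeR adjusted p = 0.141). It was called by DESeq2 (adjusted p = 0.0488) and without Tsc1-KO 7 (edgeR adjusted p = 0.0185).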

How the data were processed

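Poly(A)-selected total kidney RNA was sequenced (Illumina HiSeq). Per the submitters' processing notes, reads went through HISAT2 2.0.4 and HTSeq 0.9.1, while the build, annotation, strand setting and differential test were not given in the sources used here. The authors deposited raw read counts per gene and library and FPKM values, scaled by gene length and library total. The deposited table also holds the authors' group means, log2 fold changes and p-values, which were not used. Positions of 60 of the 61 proteases equal those of GENCODE M21 (GRCm38).

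Counts were tested with edgeR 4.0.16 (limma 3.58.1, R 4.3.3): filterByExpr (minimum count 10, about 0.348 CPM in 4 libraries), TMM scaling, a robust quasi-likelihood fit on genotype, and two-sided p-values adjusted by Benjamini-Hochberg over 18048 genes. The code was checked on simulated counts. The labels do not say that libraries came from separate animals, so p-values measure the spread between libraries. No pair of libraries had a chi-square per degree of freedom under 24.0, so all 8 were kept. Ratios of low counts have exact conditional intervals, which cover counting error only, because PCR copies were not marked by molecular identifiers.

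Alternatives were RLE size factors, DESeq2 1.42.0, no filter, and limma on log2(FPKM + 0.1) and log2(FPKM + 1). Others left out each library or added a term for Y-linked reads (more than 100 in a library). Values within the libraries with or without such reads are contrasts from 1 edgeR fit of all 8 libraries, which share filter, scaling and dispersion. Members and lists were chosen with earlier results of these data known. The rule named called members, those with a log2 change of at least 1, the 8 highest by FPKM, a few textbook members, and in the other lists the called genes and the 3 next by p. Other genes and the motifs were named after values were seen. Figures were drawn with matplotlib 3.10.9.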

Additional observations from a re-analysis of the deposited data

Results flagged for a closer look

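In groups of 4 libraries, 1 library stood far from the others in 2 of 94 groups (47 proteases in 2 genotypes), and chance alone would single out about 1 in 20. Adam1a had 9.81 CPM in Tsc1-KO 5, while the nearest Tsc1-KO library had 7.13 CPM and the lowest 6.60 CPM, and its log2 change was 0.35 without Tsc1-KO 5. Adam7 had 1.16 CPM in WT 4, while the nearest WT library had 0.40 CPM and the lowest 0.33 CPM, and its log2 change was 0.97 without WT 4. Neither gene was called with all libraries.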

How the results depend on the processing

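The number of proteases called higher was 3 of 47 tested with all libraries. With DESeq2 it was 5, with Adam33 and Mmp7 added, among 51 proteases and 21075 genes that had an adjusted p there. It was 1 with limma on either FPKM scale, 0 within the libraries with Y-linked reads and 1 within those without. When 1 library was left out it ran from 1 to 4. The number called lower was 0 under every alternative. Over all genes, 632 were called higher with all libraries, 1003 with DESeq2, 98 within the libraries with Y-linked reads, 175 within those without, and 321 (without WT 3) to 833 (without Tsc1-KO 7) when 1 library was left out. The 210 called lower became 500 with DESeq2, 317 with the Y-linked read term, 34 within the libraries with Y-linked reads, 65 within those without, and 107 (without WT 1) to 373 (without Tsc1-KO 7) when 1 library was left out. Mmp28, Adamts16, Klk1 and Mep1b were not called under limma. Signs changed in genes near 0: Adamts10 at -0.0017 with RLE, -0.0028 with DESeq2, -0.0100 and -0.0083 with limma at pseudocounts 0.1 and 1, and -0.031 within the libraries without Y-linked reads; Mmp2 at -0.037 and -0.021 with limma and -0.29 within the libraries without Y-linked reads, where Mmp9 was at -0.74 and Hbegf at 0.15; and Adamts1 at -0.15 within the libraries with Y-linked reads. Leaving out 1 library gave log2 changes of -0.034 to 0.12 for Adam10, -0.13 to 0.18 for Adamts1, -0.061 to 0.10 for Adamts10, -0.27 to 0.22 for Mmp2 and -0.27 to 0.30 for Mmp9. The cause was not tested. No paired analysis was possible because the labels give WT and Tsc1-KO libraries no shared replicate numbers. With 4 libraries in a genotype and few reads for 14 proteases, changes in low genes were not detectable at this depth unless large.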
